A study of Mus musculus with 4 samples.

Results

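The genes described here are 7 effectors of lymphocyte killing, namely *Gzma*, *Gzmb*, *Gzmc*, *Prf1*, *Nkg7*, *Fasl* and *Tnfsf10*. They were chosen by symbol, without use of their values, and all 7 were found among the 21739 gene symbols listed in at least 1 of the 4 libraries. Droplet single-cell RNA sequencing had been run on skin beside a full-thickness wound between the shoulders, taken on the seventh day after wounding from C57/BL6j mice aged 6 weeks. Every mouse was wounded and injected under the skin around the wound edge. The control group (2 mice, Control 1 and Control 2) received phosphate-buffered saline. The hucMSC-Exosomes group (2 mice, hucMSC-Exo 1 and hucMSC-Exo 2) received exosomes, small membrane vesicles, that had been collected from mesenchymal stem cells of human umbilical cord. Each library came from 1 mouse, so the spread between 2 mice is all that measures error within a group.

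Groups were read from the sample titles. Letters inside the deposited file names join Control 1 with hucMSC-Exo 1 and Control 2 with hucMSC-Exo 2, and every direction between groups below therefore rests on the titles. The lymphoid share of the kept cells followed the letters, at 64.9% in Control 1 and 64.0% in hucMSC-Exo 1 against 45.7% in Control 2 and 44.8% in hucMSC-Exo 2. So did neutrophils, which were 4.31% and 3.25% of kept cells in the first pair and 10.8% and 20.6% in the second, whereas by title the groups overlapped in both shares. Mononuclear myeloid cells were 25.6% and 27.8% in the first pair and 35.6% and 28.1% in the second. These shares alone do not tell whether titles or letters give the treatment. They were not set against the cell numbers per group that the study reported, so the assignment of mice to groups stays unchecked here. The tissue entries of the sample records name segments of gut, whereas their cell type entries and the methods name skin. Cells of the epidermal γδ gate described below were abundant in all 4 libraries. Its check gene *Xcl1* was higher in the NK gate, and these cells were not used to decide between skin and gut.

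Cytotoxic lymphocytes kill by releasing granules that hold granzymes, a family of serine proteases, together with perforin, which opens the target membrane to them. Granzymes A, B and C differ in the residues after which they cut, and *Nkg7* encodes a granule membrane protein that takes part in granule release. Fas ligand (*Fasl*) and TRAIL (*Tnfsf10*) are members of the TNF family that trigger death receptors on the target and need no granule. Natural killer (NK) cells and CD8 T cells are the classical users of both routes. Mouse epidermis also holds dendritic epidermal T cells, γδ T cells with an invariant receptor, while dermal γδ T cells that make interleukin 17 are not regarded as killers.

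The libraries held 1098, 2422, 1539 and 2119 cells, in the order Control 1, Control 2, hucMSC-Exo 1, hucMSC-Exo 2, which is kept for every run of 4 values below. Their totals were 6657095 to 16950639 unique molecular identifiers (UMIs, each standing for 1 captured RNA molecule). After filtering, 6443 cells remained, of which 3368 were lymphoid. Cells were assigned to gates by UMIs of marker genes, none of which is a member. The NK gate held 26, 48, 18 and 25 cells, the CD8 gate 25, 53, 30 and 41, and the epidermal γδ gate 261, 188, 199 and 182. Further gates were IL-17 γδ (624 cells in all), other γδ (265), conventional CD4 (245), regulatory T (214), other CD3-positive cells (455), group 2 innate lymphoid cells (ILC2, 143) and other lymphoid cells (326). Of the marker genes kept for checking and not used by the gates, 6 of 6 were highest in the NK gate, 4 of 6 in the epidermal γδ gate, 3 of 6 in the IL-17 γδ gate and 2 of 3 in the CD8 gate among the 7 main lymphoid gates. The regulatory T gate had 3 of 3, and the CD4 and ILC2 gates were less well marked, with 1 of 3 and 2 of 4. In the epidermal γδ gate *Ccr10* was low, at a mean of 2.00 CPM. CPM stands for a gene's summed UMIs divided by all UMIs summed in that gate and library, times 1000000, and a positive cell is one with at least 1 UMI of the gene.

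In neutrophils and mononuclear myeloid cells, gated the same way as a background, no member exceeded 53.1 CPM, and at most 2.87% of the cells of a library were positive for a member. Median depth per cell was 1899 to 2232 UMIs in neutrophils and 6052 to 7573 in mononuclear myeloid cells, against 3934.5 to 5231 in the NK gate. Summed *S100a8* and *S100a9*, neutrophil genes, reached 2059 CPM in 1 sum of other CD3-positive cells and 1340 CPM in the CD8 gate of Control 2. Their part in the results was not tested. Intervals and limits given below cover counting error only.

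**Figure D1:**
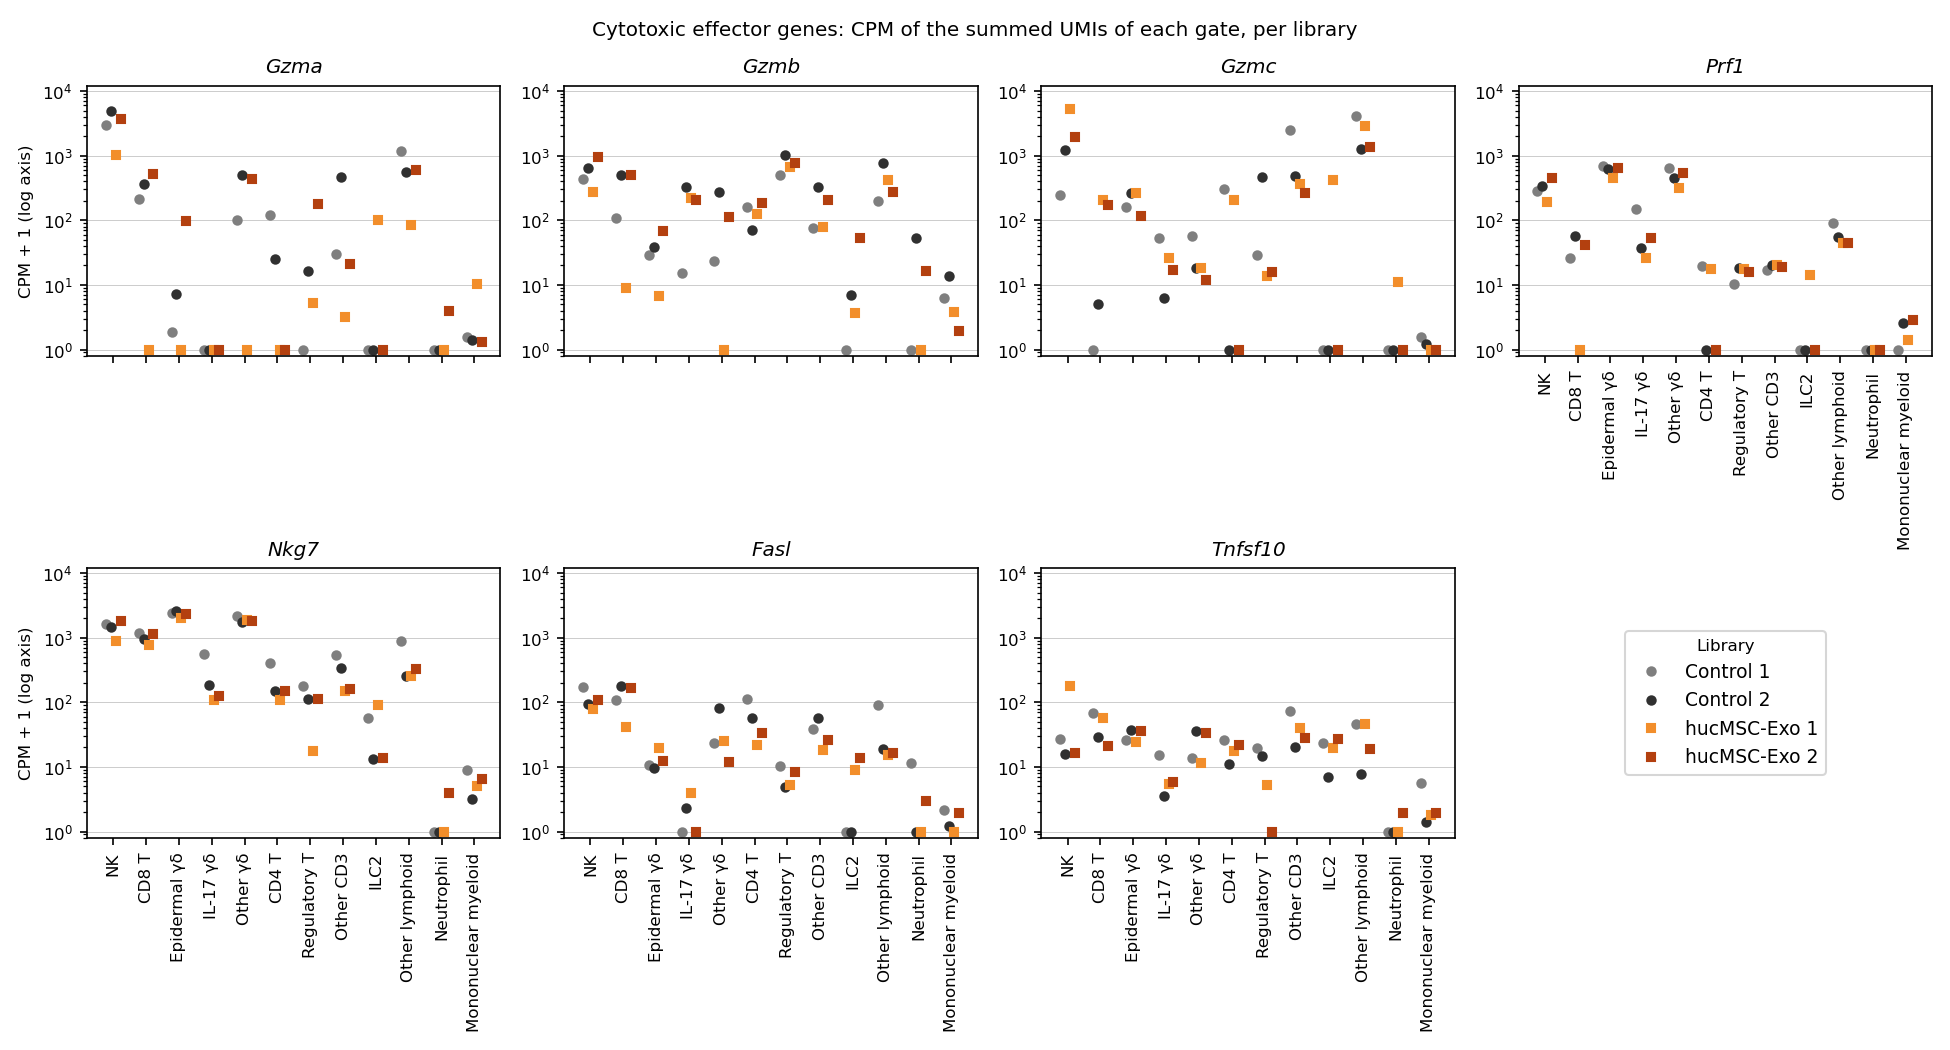
CPM + 1 (log axis) of the 7 genes in 12 gates, 1 point per library, with controls and hucMSC-Exo libraries in separate colours. *Gzma* stood highest in the NK gate at 1024 to 4868 CPM, *Prf1* and *Nkg7* in the epidermal γδ gate, and the myeloid gates lay at or below 53.1 CPM for every gene.

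*Gzmb* and *Gzmc* lie beside each other on chromosome 14, with 24181 bases between their annotated ends in the GRCm38 annotation, at chr14:56258838-56262260 and chr14:56231441-56234656, both on the minus strand. *Gzma* is on another chromosome (chr13:113093825-113100981), as is *Prf1* (chr10:61297833-61304680). *Nkg7* is at chr7:43437073-43438249, *Fasl* at chr1:161780689-161788495 and *Tnfsf10* at chr3:27317028-27342427. To set the granule genes that differed in their gates side by side, the 250 bases before the RefSeq starts (GRCm38.p6) of the 3 granzymes and perforin are shown 5′ to 3′ on the gene's strand. Capitals mark letters that match TGTGGT (the core read by Runx factors), TGANTCA (AP-1), TGACGTCA (a cyclic AMP response element) or GGAAGT (an ETS core) on either strand.
Gzma promoter, chr13:113100982-113101231, minus strand: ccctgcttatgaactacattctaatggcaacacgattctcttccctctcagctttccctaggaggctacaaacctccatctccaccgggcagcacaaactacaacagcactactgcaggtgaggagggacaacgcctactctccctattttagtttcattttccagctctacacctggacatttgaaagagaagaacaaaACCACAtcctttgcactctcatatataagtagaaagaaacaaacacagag
Gzmb promoter, chr14:56262335-56262584, minus strand: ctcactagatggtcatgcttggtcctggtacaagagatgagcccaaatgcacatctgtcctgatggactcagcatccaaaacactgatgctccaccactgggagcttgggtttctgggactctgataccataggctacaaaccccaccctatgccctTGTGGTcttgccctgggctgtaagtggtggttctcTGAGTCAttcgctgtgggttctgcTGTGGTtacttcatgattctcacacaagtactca
Gzmc promoter, chr14:56234658-56234907, minus strand: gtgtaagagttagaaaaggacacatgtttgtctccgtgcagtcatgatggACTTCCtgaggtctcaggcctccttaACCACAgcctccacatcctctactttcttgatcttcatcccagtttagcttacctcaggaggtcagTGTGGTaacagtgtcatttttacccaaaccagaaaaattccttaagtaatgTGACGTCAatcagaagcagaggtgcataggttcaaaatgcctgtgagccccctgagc
Prf1 promoter, chr10:61297586-61297835, plus strand: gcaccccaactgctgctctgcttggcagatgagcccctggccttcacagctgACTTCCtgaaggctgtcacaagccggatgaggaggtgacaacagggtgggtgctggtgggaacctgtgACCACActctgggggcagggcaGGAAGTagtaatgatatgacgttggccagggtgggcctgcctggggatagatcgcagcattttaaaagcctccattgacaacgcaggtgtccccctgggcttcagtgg
The Runx letters occurred in 5 of the 7 promoters (*Gzma*, *Gzmb*, *Gzmc*, *Prf1* and *Nkg7*) and in 14.2% of all 27025 promoters of the same length. The window of *Gzmc* held the cyclic AMP element, found in 1.62% of promoters, and that of *Gzmb* held the AP-1 letters, found in 6.87%. The ETS core was in the windows of *Gzmc*, *Prf1* and *Fasl* and in 5401 of all promoters. These matches describe letters in a window and are not binding sites shown by these data.

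*Gzma*, the granzyme that cuts after basic residues, was close to a marker of the NK gate. Its level there was 2960, 4868, 1024 and 3675 CPM, and 80.8%, 68.8%, 33.3% and 68.0% of NK cells were positive. hucMSC-Exo 1 was the lowest library by both measures. The levels of the groups overlapped, and the share in hucMSC-Exo 2 was just below that in Control 2. Positive NK cells held a median of 13, 28, 12 and 21 UMIs of *Gzma*, and up to 164 in 1 cell. The NK gate supplied 52.9% of the 4207 *Gzma* UMIs of all kept cells, and other lymphoid cells a further 23.6%.

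Outside these gates *Gzma* was patchy. In the CD8 gate it measured 210, 369, 0 and 527 CPM, and the 30 CD8 cells of hucMSC-Exo 1 had no UMI, which allows a level of up to 23.9 CPM. In the epidermal γδ gate it measured 0.893, 6.18, 0 and 97.5 CPM, and in hucMSC-Exo 2 a single cell held 85.5% of the UMIs. None of the 624 IL-17 γδ cells had a UMI of *Gzma*, which allows up to 10.5, 3.88, 4.39 and 2.06 CPM. By mean of the 4 libraries the order was NK (3132 ± 1611, SD, n = 4), other lymphoid (602), CD8 (276) and other γδ cells (258). The library ranges of the NK and other lymphoid gates overlapped, as did those of each further pair of neighbours.

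*Gzmb*, the granzyme that cuts after aspartate and activates caspases, was spread over more cell types than *Gzma*. In the NK gate it measured 438, 649, 278 and 967 CPM, with 53.8%, 50.0%, 33.3% and 52.0% of cells positive. Regulatory T cells had a similar level of 497, 1037, 667 and 762 CPM, and 70.0%, 62.8%, 52.0% and 62.1% of them were positive. The ranges of these 2 gates overlapped (583 ± 298 against 741 ± 226 CPM, SD, n = 4), and their difference was not tested.

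CD8 cells held 109, 494, 7.97 and 496 CPM of *Gzmb*, with 20%, 41.5%, 3.33% and 51.2% positive. The low libraries were Control 1 and hucMSC-Exo 1, 1 of each group. IL-17 γδ cells, which had no *Gzma* UMI, held *Gzmb* at 14.1, 326, 217 and 208 CPM, and 5%, 20.1%, 11.2% and 19.8% of them were positive. The epidermal γδ gate was far lower at 28.6, 37.1, 5.78 and 66.4 CPM, with 2.01% to 4.95% of cells positive in a library.

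Much of the *Gzmb* RNA lay in cells of no gate or in other lymphoid cells, a split that was looked at after its values had been seen. Of 5791 *Gzmb* UMIs, 28.4% fell in cells of no gate and 17.5% in other lymphoid cells. In these 2 classes, 139 cells had a UMI of *Cpa3*, *Mcpt8*, *Cma1*, *Tpsab1* or *Gata2*, genes of mast cells and basophils, and they held 2454 UMIs, or 42.4% of the *Gzmb* UMIs. The share per library was 1.20%, 50.4%, 55.4% and 21.1%, lowest in Control 1, which had 9 such cells against 71, 28 and 31. *Gzmb* stood at 148, 7131, 7436 and 3964 CPM in them, and the richest cell had 242 UMIs. The same cells held 43 UMIs of *Gzma*.

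**Figure D2:**
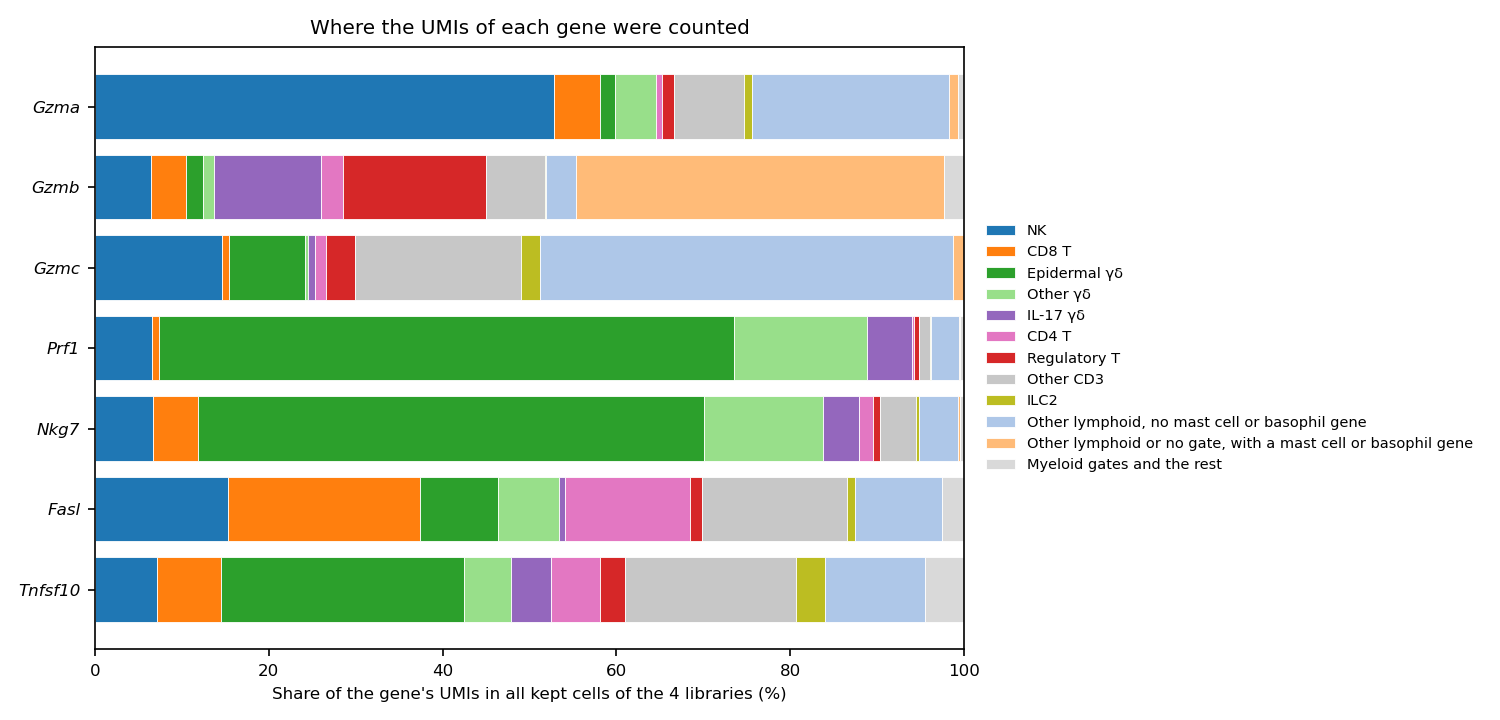
Share of each gene's UMIs (percent, summed over the 4 libraries) by the gate of the cell, with cells of other lymphoid or no gate split by a UMI of a mast cell or basophil gene. *Gzma* came mostly from NK cells (52.9%), *Prf1* and *Nkg7* from epidermal γδ T cells (66.2% and 58.2%), and 42.4% of *Gzmb* lay in cells with a mast cell or basophil gene.

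*Gzmc*, known from strongly activated killer cells, was concentrated in few cells. Of the 3368 lymphoid cells 246 were positive, and the 94 cells with at least 10 UMIs held 94.9% of the lymphoid *Gzmc* UMIs (92.6%, 97.0%, 96.6% and 91.1% per library). The richest cell held 421 UMIs. These 94 cells fell mainly in the other lymphoid (42), NK (16), other CD3-positive (16) and epidermal γδ (12) gates. Of the 94, 86 had a UMI of *Nkg7*, 81 of *Tyrobp*, 89 of the chemokine gene *Xcl1* and 78 of *Itgae*, the integrin of skin-resident lymphocytes. A UMI of *Gzma* was found in 2 of the 94, of *Gzmb* in 12 and of *Prf1* in 36. Among all lymphoid cells of a library, 1.43% to 7.50% had *Gzma*, 9.49% to 21.5% *Gzmb* and 25.1% to 54.5% *Prf1*.

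In the NK gate *Gzmc* measured 249, 1217, 5373 and 1958 CPM, and 19.2%, 14.6%, 61.1% and 36.0% of cells were positive. Both hucMSC-Exo libraries were above both controls, though a single cell held 55.2%, 42.1%, 31.5% and 48.6% of the gate's *Gzmc* UMIs. The other lymphoid gate measured 4058, 1257, 2906 and 1376 CPM, with no such order. Other CD3-positive cells had the opposite order, at 2507, 487, 369 and 267 CPM, so that both controls were above both hucMSC-Exo libraries. There a single cell held 36.1%, 27.4%, 50.3% and 83.8% of the UMIs. Epidermal γδ T cells held a lower level of 159, 261, 264 and 116 CPM, with 12.6%, 8.51%, 7.54% and 6.59% positive. A single cell held 34.3%, 35.1%, 33.3% and 47.6% of these UMIs. The order by mean was other lymphoid (2399), NK (2199 ± 2229, SD, n = 4), other CD3-positive (907) and epidermal γδ (200), and neighbouring ranges overlapped down to the third of these.

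Within the NK gate the granzymes A and C rarely met in 1 cell. Of 117 NK cells, 67 had *Gzma* without *Gzmc*, 22 had *Gzmc* without *Gzma*, 10 had both and 18 had neither. *Gzma* and *Gzmb* in contrast went together, since 52 of the 57 *Gzmb*-positive NK cells had *Gzma*. The cells with *Gzmc* alone numbered 2 and 5 in the controls and 10 and 5 in the hucMSC-Exo libraries, so that most of the excess lay in hucMSC-Exo 1.

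A split of the NK gate by *Itgae* was made after these values had been seen and has no test. The 17 cells with a UMI of *Itgae* numbered 0, 6, 9 and 2 per library. None of these 17 had a UMI of *Gzma* or *Gzmb*, which at this depth does not show that the RNA was absent, and 13 of them (76.5%) had *Gzmc*. Of the 100 cells without *Itgae*, 77 had *Gzma*, 57 had *Gzmb* and 19 had *Gzmc*. *Prf1* was found in 6 of the 17 and 68 of the 100, and *Nkg7* in 15 and 98. *Tnfsf10* was found in 7 of the 17 cells and 6 of the 100. All 34 NK cells with *Klra8*, a Ly49 receptor gene of mature NK cells, had *Gzma*, and 2 of them had *Gzmc*.

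**Figure D3:**
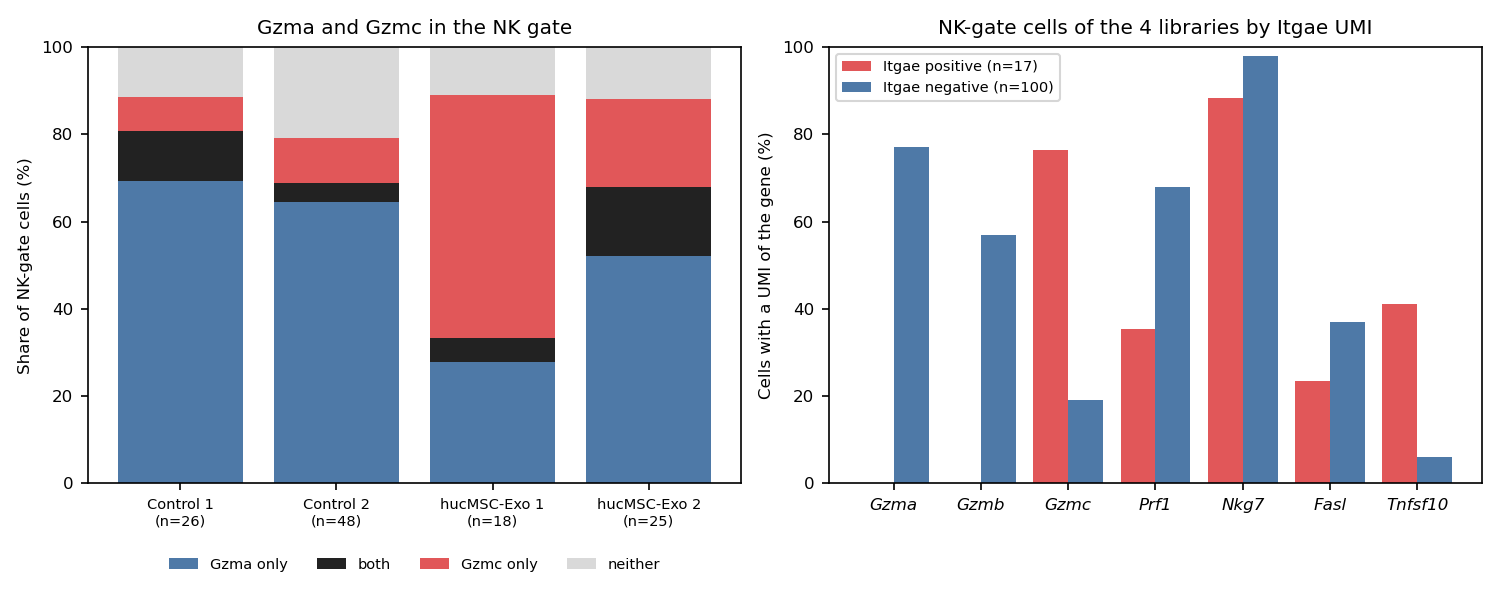
Left, NK cells per library (percent of the gate's 26, 48, 18 and 25 cells) with *Gzma* only, *Gzmc* only, both or neither; right, percent positive for each member in the 17 NK cells with *Itgae* and the 100 without. Cells with both granzymes numbered 3, 2, 1 and 4, and no *Itgae*-positive cell had *Gzma* or *Gzmb*.

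*Prf1*, encoding perforin, had its highest level in epidermal γδ T cells and not in NK cells. The epidermal γδ gate measured 686, 613, 456 and 650 CPM, with 84.3%, 81.9%, 69.8% and 75.3% of cells positive and no more than 15 UMIs in a cell. Other γδ cells followed at 645, 449, 318 and 534 CPM, and the NK gate at 283, 341, 189 and 457 CPM, with 65.4%, 58.3%, 66.7% and 68.0% positive. hucMSC-Exo 1 was lowest in each of the 3 gates. Over the libraries the epidermal γδ gate averaged 601 ± 101 CPM and the NK gate 318 (n = 4), and the lowest epidermal γδ library met the highest NK library.

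CD8 cells held little *Prf1*, at 25.2, 56.2, 0 and 40.9 CPM, and the *Gzmb*-positive regulatory T cells held 9.38 to 17.5 CPM. IL-17 γδ cells measured 148, 36.2, 24.9 and 51.5 CPM, highest in Control 1. Of the 3081 *Prf1* UMIs, 66.2% came from the epidermal γδ gate, 15.2% from other γδ cells and 6.52% from NK cells.

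The pairing of granzymes with perforin therefore differed by gate. In the NK gate 57.7%, 54.2%, 55.6% and 64.0% of cells had *Prf1* together with at least 1 of the 3 granzymes. In the epidermal γδ gate 71.3%, 72.9%, 64.8% and 67.6% of cells had *Prf1* and none of them, which was 84.5% to 92.8% of the *Prf1*-positive cells of a library. Regulatory T cells showed the reverse, with 70.0%, 58.1%, 50.0% and 60.3% of cells having a granzyme without *Prf1* and 4.65% to 6.00% having both. A missing UMI does not show that a cell lacked the RNA, and shares of different genes were not scaled to their capture.

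**Figure D4:**
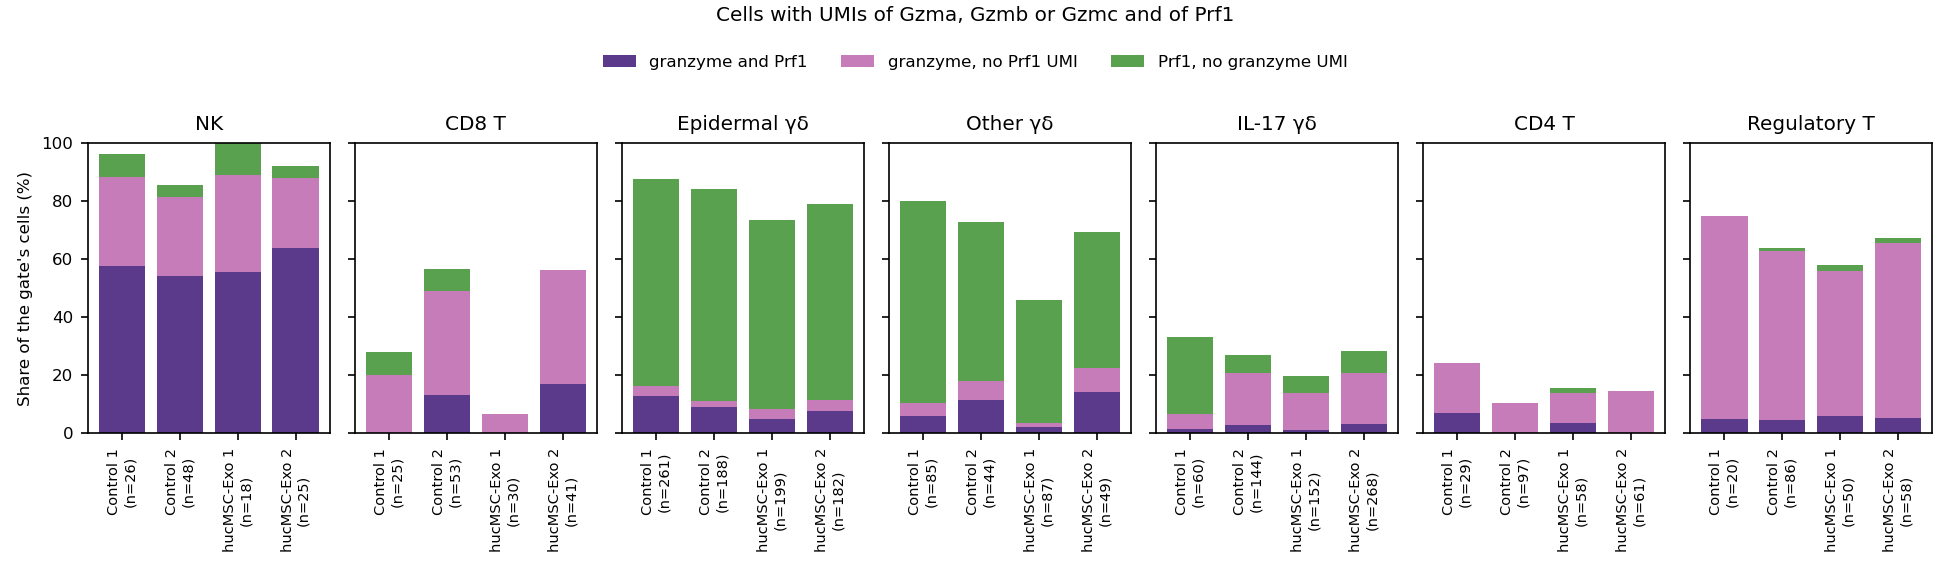
Percent of cells with a granzyme UMI (*Gzma*, *Gzmb* or *Gzmc*) and *Prf1*, a granzyme only, or *Prf1* only, in 7 gates of the 4 libraries. NK cells mostly had both (54.2% to 64.0%), epidermal γδ T cells *Prf1* only (64.8% to 72.9%) and regulatory T cells a granzyme only (50.0% to 70.0%).

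*Nkg7* was the most widely found member. In the epidermal γδ gate it measured 2433, 2548, 2038 and 2295 CPM, with 94.5% to 97.7% of cells positive. Other γδ cells had 1725 to 2179 CPM, and the NK gate 1622, 1466, 879 and 1826 CPM with at least 95.8% of cells positive. CD8 cells followed at 1176, 947, 765 and 1135 CPM. The lowest epidermal γδ library was above the highest NK library, whereas the ranges of the NK and CD8 gates overlapped.

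In IL-17 γδ cells *Nkg7* stood at 559, 186, 107 and 123 CPM, highest in Control 1. Markers of epidermal γδ T cells were also highest there, *Fcer1g* at 429, 133, 136 and 121 CPM and *Cd7* at 475, 182, 133 and 105 CPM. Their part in the *Nkg7* level was not tested.

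*Fasl* was a gene of conventional T cells and NK cells. It measured 109, 181, 39.9 and 164 CPM in the CD8 gate, with 32.0%, 50.9%, 13.3% and 39.0% of cells positive, and 172, 92.8, 77.9 and 108 CPM in the NK gate. In conventional CD4 cells it measured 113, 57.0, 21.1 and 32.3 CPM, and both controls were above both hucMSC-Exo libraries. Epidermal γδ T cells had 8.65 to 18.8 CPM and regulatory T cells 3.89 to 9.38 CPM. The ranges of the CD8, NK and CD4 gates overlapped, and with 431 UMIs in all the gene was sparse.

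*Tnfsf10* was low in every gate, with 351 UMIs in all. It measured 67.2, 28.1, 55.8 and 20.5 CPM in the CD8 gate and 25.0, 35.8, 23.1 and 35.3 CPM in the epidermal γδ gate. The NK gate had 25.7, 14.8, 178 and 15.5 CPM, and the high value of hucMSC-Exo 1 came from a gate of 18 cells. Of the 25 NK UMIs, 18 lay in the cells with *Itgae*. IL-17 γδ cells had 2.59 to 14.1 CPM.

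Gates were compared on UMIs summed per library and gate, with the library as a block, by the quasi-likelihood test of edgeR, and p values were adjusted by Benjamini and Hochberg's method over every gene of a comparison. Log2 differences below are given with their SE. A member entered a comparison only where enough of its sums passed the filter on low counts, so the counts of members called say nothing of those that did not enter. NK cells exceeded CD8 cells in *Gzma* by 3.62 ± 0.27 (adjusted p = 2.20e-07), in *Gzmc* by 4.67 ± 0.35 (adjusted p = 2.20e-07) and in *Prf1* by 3.26 ± 0.33 (adjusted p = 3.79e-06). The CD8 gate had 0, 1, 26 and 33 UMIs of *Gzmc*, most of them in 2 cells, and 3, 14, 0 and 8 of *Prf1*. Both genes therefore entered the test through the NK cells, and their folds rest on few CD8 UMIs. Smaller excesses were found for *Gzmb* (1.25 ± 0.33, adjusted p = 0.0247) and *Nkg7* (0.53 ± 0.14, adjusted p = 0.0236). Neither held in every library left out. Without Control 1 or hucMSC-Exo 2 the *Gzmb* difference was 1.11 (adjusted p = 0.0728) or 1.40 (0.111), and without Control 1, Control 2 or hucMSC-Exo 2 that of *Nkg7* was 0.56, 0.47 or 0.45 (adjusted p = 0.0631, 0.139 and 0.157). *Fasl* did not pass the test (−0.24 ± 0.31, adjusted p = 0.737). Of the 6 members tested, 5 were called higher in NK cells. Among all 1607 genes tested, 11.1% were called in either direction and 5.6% were called higher. Since *Gzmc* and *Prf1* entered through the NK cells and *Gzmb* and *Nkg7* did not hold throughout, the tally shows no excess of members over these shares.

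Against epidermal γδ T cells the effectors separated into different sets. NK cells were higher in *Gzma* by 7.72 ± 0.44, *Gzmb* by 4.34 ± 0.22, *Fasl* by 3.45 ± 0.39 and *Gzmc* by 3.15 ± 0.33 (the largest adjusted p of the 4 by edgeR was 3.72e-08). They were lower in *Prf1* by a log2 difference of −0.74 ± 0.18 (adjusted p = 0.00218) and in *Nkg7* by −0.52 ± 0.14 (adjusted p = 0.00627). *Tnfsf10* did not pass (0.67 ± 0.52, adjusted p = 0.397). Here 25.6% of the 5349 genes tested were called. The epidermal γδ gate had 1, 5, 0 and 69 UMIs of *Gzma* and 11, 7, 13 and 8 of *Fasl*. Both genes therefore entered the test through the NK cells, and the size of their folds rests on few UMIs. With each library left out in turn the *Gzma* difference ran from 7.11 to 10.4. It was 10.4 without hucMSC-Exo 2, the library with 1 *Gzma*-rich epidermal γδ cell.

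CD8 cells against epidermal γδ T cells gave the same directions for *Fasl* (3.56 ± 0.37), *Gzma* (4.19 ± 0.43) and *Gzmb* (3.11 ± 0.28), and for *Prf1* (−3.93 ± 0.28) and *Nkg7* (−1.02 ± 0.14), all past the edgeR threshold, beside 29.2% of 5222 genes called. The *Gzma* and *Fasl* folds again rest on the few UMIs of the epidermal γδ gate, and *Fasl* entered this test through the CD8 cells. *Gzmc* (−1.04 ± 0.45, adjusted p = 0.0813) and *Tnfsf10* (0.57 ± 0.41, adjusted p = 0.333) did not pass. Without hucMSC-Exo 2 the difference in *Gzmc* was −2.0 and passed (adjusted p = 0.00286).

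CD8 cells exceeded conventional CD4 cells in *Nkg7* by 2.52 ± 0.19 (edgeR adjusted p = 2.89e-07), in *Gzma* by 3.49 ± 0.61 (adjusted p = 0.00211) and in *Fasl* by 1.38 ± 0.33 (adjusted p = 0.0172). These were 3 of 5 members tested, beside 7.68% of 2748 genes called in either direction and 3.64% called higher. *Gzma* had 25, 92, 0 and 103 UMIs in the CD8 gate and 19, 12, 0 and 0 in the CD4 gate, so its fold rests on few UMIs. Without Control 2 neither *Gzma* (3.20, adjusted p = 0.0730) nor *Fasl* (1.20, adjusted p = 0.203) passed, and *Fasl* did not pass without hucMSC-Exo 2 (1.04, adjusted p = 0.143). *Gzmb* at 1.09 ± 0.48 missed the threshold (adjusted p = 0.219) but passed without hucMSC-Exo 1 (1.60, adjusted p = 0.0206), the library with the fewest *Gzmb*-positive CD8 cells.

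The 2 γδ gates differed in opposite directions by gene. Epidermal γδ T cells were higher than IL-17 γδ cells in *Nkg7* (3.43 ± 0.26), *Prf1* (3.33 ± 0.24), *Gzmc* (3.09 ± 0.35) and *Tnfsf10* (2.39 ± 0.41), and lower in *Gzmb* (−2.52 ± 0.43, edgeR adjusted p = 0.00018). In this comparison 42.5% of 6529 genes were called. The IL-17 γδ gate had 4, 2, 3 and 7 UMIs of *Tnfsf10*. That gene therefore entered the test through the epidermal γδ cells, and its fold rests on few UMIs. NK cells were higher than ILC2, which are not cytotoxic, in *Gzma*, *Gzmb*, *Gzmc*, *Prf1* and *Nkg7* by 4.8 to 5.98, beside 16.7% of 1559 genes called in either direction and 7.12% called higher. ILC2 had 0 UMIs of *Gzma* and of *Gzmc* in 3 of the 4 libraries, and likewise of *Prf1*, and 0, 1, 1 and 4 UMIs of *Gzmb*. These genes therefore entered the test through the NK cells, and their folds depend on the prior count.

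**Figure D5:**
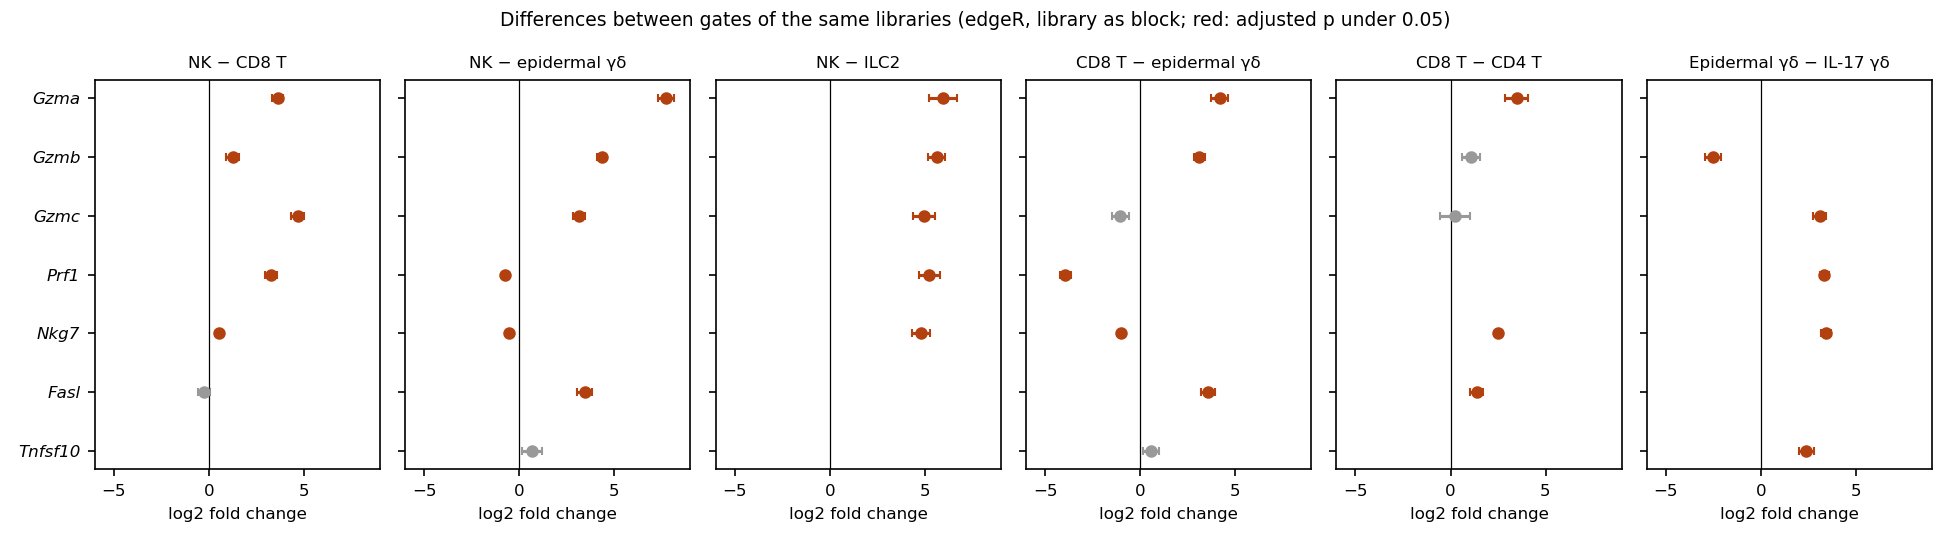
Log2 difference (with SE bars) of each member tested in the 6 comparisons of gates by edgeR with the library as a block, red where the adjusted p was below 0.05. *Prf1* and *Nkg7* lay below 0 in NK and CD8 cells against epidermal γδ T cells (−0.74 and −0.52 in NK cells), while *Gzma*, *Gzmb* and *Fasl* lay above 0 in both.

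Control and hucMSC-Exosomes mice were compared within 7 gates to ask whether the exosomes altered the effectors. Of 26 member values tested, 1 passed. In the CD8 gate *Gzmc* measured 0 and 4.01 CPM in the controls and 207 and 169 CPM in the hucMSC-Exo libraries. The log2 difference was 5.72 ± 0.73 (edgeR adjusted p = 0.00996), and this was the only call among 2214 genes (0.0452%). It rested on 1 cell in each hucMSC-Exo library, which held 25 of 26 and 32 of 33 UMIs, while the only other positive cell of each library had 1 UMI. The controls had 0 and 1 UMI. *Gzmc* thus passed the filter only through the hucMSC-Exo libraries and its fitted fold depends on the prior count, so the value describes 1 cell per mouse. The ratio of levels was 67.7, with a 95% counting interval of 11.7 to 2718 that takes UMIs as independent, which UMIs of 1 cell are not. DESeq2 gave 6.03 with an adjusted p of 0.0527, and the edgeR difference ran from 5.30 to 7.74 with each library left out.

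In the NK gate 0 of 1670 genes were called by edgeR (0%), and 32 had an unadjusted p below 0.05. *Gzmc* was higher in the hucMSC-Exosomes group by 2.27 ± 0.74 (unadjusted p = 0.0200, adjusted p = 0.9997). With 1 library left out the difference was 1.56 without Control 1, 3.84 without Control 2, 1.41 without hucMSC-Exo 1 and 2.79 without hucMSC-Exo 2. The *Gzma* difference of −0.71 ± 0.56 did not pass, and was −1.99 without hucMSC-Exo 2 and −0.07 without hucMSC-Exo 1. In such fits the lone library of a group is assumed to vary like the pair of the other, so their p values are not given. *Gzmb* (0.22 ± 0.56), *Prf1* (0.08 ± 0.44), *Nkg7* (−0.17 ± 0.36) and *Fasl* (−0.39 ± 0.47) did not pass.

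The NK gate also differed in makeup between libraries, and *Itgae* was found in 0% and 12.5% of NK cells of the controls and in 50.0% and 8.00% of the hucMSC-Exo libraries. In the 26, 42, 9 and 23 NK cells without an *Itgae* UMI, *Gzmc* measured 249, 329, 1717 and 1025 CPM. It was found in 5, 3, 4 and 7 of these cells (19.2%, 7.14%, 44.4% and 30.4%). A missing *Itgae* UMI does not show that a cell lacked the RNA. The part of the makeup in the *Gzmc* difference was not tested. *Klra8* was found in 42.3% and 22.9% against 16.7% and 36.0%. After every cell was brought to 1000 UMIs, 64.2%, 63.4%, 30.5% and 59.9% of NK cells were positive for *Gzma*, a difference of −18.6 percentage points. For *Gzmc* the shares were 11.0%, 12.6%, 48.0% and 20.5%, a difference of 22.4 points. An exact two-sided permutation test gave p = 0.333 for both, the smallest that 2 against 2 mice allow. Without hucMSC-Exo 1 the differences were −3.90 and 8.65 points. At the same depth the groups were also apart for *Gzmc* in the CD8 gate (3.50 points). In the epidermal γδ gate they were apart for *Nkg7* (−4.69), *Gzmc* (−1.32) and *Fasl* (0.565). The exact permutation test again gave p = 0.333 for each. Groups that do not differ fall apart in this way with the same probability of 0.333. The share of all genes with groups apart was not computed.

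In the CD8 gate *Gzma* (−0.13 ± 0.85), *Gzmb* (−0.29 ± 0.85), *Nkg7* (−0.22 ± 0.26) and *Fasl* (−0.52 ± 0.52) did not pass. The first pair rested on single libraries, at −8.64 and −5.25 without hucMSC-Exo 2 and 0.82 and 0.65 without hucMSC-Exo 1. Without Control 2 that of *Gzmb* was 1.19. Epidermal γδ T cells, the largest gate, gave *Prf1* at −0.19 ± 0.20, *Nkg7* at −0.16 ± 0.17, *Gzmc* at −0.10 ± 0.35, *Tnfsf10* at 0.00 ± 0.36 and, with a wider error, *Gzmb* at 0.19 ± 0.61. None of the 6872 genes tested there was called (0%), while 380 had an unadjusted p below 0.05.

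Nor was any member called in the other gates, where edgeR called 0% of 6075 genes in IL-17 γδ cells, 3595 in CD4 cells, 3529 in regulatory T cells and 1757 in ILC2. Unadjusted p values below 0.05 numbered 130, 75, 99 and 53. *Nkg7* in IL-17 γδ cells was −1.57 ± 0.42 (edgeR adjusted p = 0.9997), −0.66 without Control 1 and −2.14 without Control 2. *Nkg7* in CD4 cells was −1.05 ± 0.47, and −1.64 without Control 2. In regulatory T cells it was −1.0 ± 0.51, and −2.93 without hucMSC-Exo 2. *Fasl* in CD4 cells was −1.51 ± 0.51 (adjusted p = 0.999), and *Gzmb* in regulatory T cells −0.13 ± 0.31. Summed UMIs do not tell fewer expressing cells in a gate from less RNA in each.

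Cycling cells, those with a UMI of *Mki67* or *Top2a*, were compared with the other cells of their gate by edgeR with the library as a block, since granzymes are known to rise in dividing lymphocytes. None of the 10 member values tested was called, beside 2.47% of 4741 genes in epidermal γδ T cells, 2.68% of 3731 in IL-17 γδ cells and 1.57% of 1652 in CD4 cells. The NK and CD8 gates had too few cycling cells to be tested, 5, 7, 4 and 8 and 3, 13, 9 and 9. *Gzmb* measured 998, 600, 82.7 and 1744 CPM in cycling NK cells against 251, 660, 350 and 325 CPM in the others. For CD8 cells the values were 150, 619, 26.5 and 809 against 101, 439, 0 and 364 CPM. In cycling epidermal γδ T cells *Prf1* measured 587, 504, 245 and 542 CPM against 708, 630, 514 and 659 CPM in the others. It was lower in all 4 libraries, at −0.51 ± 0.16 (unadjusted p = 0.00383, adjusted p = 0.117). *Gzmc* measured 115, 549, 557 and 90.3 CPM against 169, 215, 185 and 118 CPM, a difference of 0.72 ± 0.26 (adjusted p = 0.217) that passed without Control 1 (1.13, adjusted p = 0.0166). *Gzmb* in cycling IL-17 γδ cells differed by −0.15 ± 0.18.

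Of 33 other genes of granule storage, granule release, granzyme inhibition and death receptor signalling, 9 were tested between NK and CD8 cells. Of these, 4 were higher in NK cells and 0 lower, with a median log2 difference of 0.86 beside 0.00 over all genes. These 4 were *Eomes* (1.90), a transcription factor that the NK gate itself used, *Ctsw* (0.84), a protease of killer cells, and the granzyme inhibitors *Serpinb6b* (2.24) and *Serpinb9* (1.85). Between NK and epidermal γδ cells 20 were tested, and 5 were higher in NK cells and 7 lower, with a median of −0.01 beside −0.05 over all genes. The 5 include *Eomes* (8.45), which the NK gate used. *Ifng*, the interferon of NK cells, was among the higher (6.51), with 352, 152, 122 and 325 CPM in the NK gate and 0.893 to 5.78 CPM in the epidermal γδ gate. So were *Tbx21* (5.65), *Serpinb9* (2.42) and *Serpinb6b* (1.76). The granule proteoglycan gene *Srgn* (0.30) and *Ctsw* (−0.18) did not pass.

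Between epidermal and IL-17 γδ cells 9 of 20 genes of this list were higher in the epidermal cells and 5 lower, with a median of 0.54 beside 0.01 over all genes. *Ctsw* (2.72) was among the higher and *Srgn* (−1.94) among the lower. CD8 against epidermal γδ cells gave 6 higher and 4 lower of 20, with a median of −0.06, beside 29.2% of all genes called. CD8 against CD4 cells gave 1 and 1 of 13, with a median of 0.38, beside 7.68%. NK cells against ILC2 gave 5 and 1 of 8, with a median of 2.37, beside 16.7%. The 5 include *Eomes* (8.36), a gene that places cells in the NK gate and so out of the ILC2 gate. Its direction was thus set by the gates. Between the hucMSC-Exosomes and control groups no gene of this list was called in any of the 7 gates.

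Over the 48 sums of 1 gate and 1 library, which share libraries and depth, each member had its own nearest genes by Pearson's r of log2(CPM + 1) among 5242 candidates. *Gzma* ran with *Klre1* (0.871), *Eomes* (0.795) and *Klra7* (0.784), and *Gzmc* with *Xcl1* (0.782), *Nrgn* (0.735) and *Txk* (0.704). *Prf1* ran with *Atp1b1* (0.880), *Serp2* (0.869) and *Xcl1* (0.856). *Nkg7* was nearest to *Ctsw* (0.934), *Cd96* (0.904) and *Cst7* (0.895). *Fasl* ran with *Tbx21* (0.818), *Ms4a4b* (0.817) and *Ifng* (0.787), *Gzmb* with *Ms4a4b* (0.785), *Sh2d1a* (0.779) and *Gimap6* (0.763), and *Tnfsf10* with *Ctsw* (0.853), *Tcf7* (0.823) and *Pde7a* (0.797). Among the members the highest r was that of *Prf1* with *Nkg7* (0.831) and the lowest that of *Gzmb* with *Tnfsf10* (0.333).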

How the data were processed

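Single-cell RNA libraries of 4 mice were analysed. The authors aligned reads to mm10 with Cell Ranger 6.1.2 and deposited UMI counts per gene and cell, not normalized. The study's filter was applied (200 to 3000 genes, mitochondrial share up to 10%), which left 6443 of 7178 cells. Scrublet marked 48 cells, which were left out only as an alternative, and libraries shared at most 2 barcodes. Gates required marker UMIs (*Ncr1*, *Klrb1c* or *Eomes* without *Cd3* or *Trdc* for NK cells, *Cd8a* or *Cd8b1* for CD8 cells, *Trdc* with *Tcrg-V5* or *Itgae* for epidermal γδ T cells). UMIs were summed per library and gate of at least 10 cells and tested with edgeR 4.0.16 in R 4.3.3 (quasi-likelihood, TMM, filterByExpr, Benjamini-Hochberg, threshold 0.05), with DESeq2 1.42.0 as an alternative. Shares were compared at an expected 1000 UMIs per cell, with scipy 1.17.1. A count of 0 was given the limit of 3 counts. Genes named were the 7 members, the 8 of 33 related genes with the highest NK level and, for likeness, the 3 nearest genes with a mean of at least 20 CPM. Members, lists and tests were chosen with earlier results of these data known. The tests were tried on simulated data.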

Additional observations from a re-analysis of the deposited data

How the results depend on the processing

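Of the 29 member differences called between gates, 29 were called without the filter on low counts, 25 by DESeq2, 24 without the library block, 20 of the 22 that could be fitted under stricter gates, and 25 to 29 with each library left out. The cause of the lost calls was not tested. Counts of called genes moved more. Without the filter they were 115, 210 and 303 for cycling in CD4, epidermal γδ and IL-17 γδ cells (26, 117 and 100 with it), 340, 339 and 521 for CD8 against CD4, NK against CD8 and NK against ILC2 (211, 178 and 261), and 13, 17, 43, 16, 27, 3 and 17 for the groups in CD4, CD8, epidermal γδ, IL-17 γδ, ILC2, NK and regulatory T cells. DESeq2 called 85 genes for CD8 against CD4, 88 for NK against CD8 and 1 for the groups in CD4 cells. Without the library block the counts were 53 for cycling IL-17 γδ cells, 67 for CD8 against CD4 and 107 for NK against CD8. With cells of over 3000 genes kept, 2 genes were called between the groups in CD8 and 5 in epidermal γδ cells, and stricter gates called 2 in CD8 cells. Thinned to 500 UMIs, 1 NK member in place of 2 had groups apart.

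The replicate block for same-numbered libraries called 17 genes between the groups in CD8 and 12 in epidermal γδ cells, in place of 1 and 0, and changed no other count by over 1.5 times. It turned the epidermal γδ group differences of *Gzmb* to −0.13 and of *Tnfsf10* to −0.029 and that of *Prf1* in NK cells to −0.0025, all small and not called. Deviations of same-numbered libraries from the group means had correlations of −0.044 to 0.060 over 7 gates. Each was taken over 4743 to 5388 genes, and a pairing of single genes was not tested. In the CD8 gate *Gzma*, *Gzmb*, *Prf1* and *Fasl* were lower in Control 1 and hucMSC-Exo 1 than in Control 2 and hucMSC-Exo 2. *Tnfsf10* was higher there, and *Gzmc* and *Nkg7* did not split so. Same-numbered libraries also share file-name letters and a similar lymphoid share.

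Other reversals were of values that were not called. With cells of over 3000 genes kept, the group difference was −0.62 for *Gzmb* and −0.084 for *Tnfsf10* in epidermal γδ and −0.072 for *Prf1* in NK cells, and *Gzmc* was −0.72 in CD8 against CD4. Stricter gates gave 0.14 for *Gzmc* and −0.040 for *Tnfsf10* in epidermal γδ and 0.058 for *Gzmb* in regulatory T cells. Without the library block *Gzmc* was −0.15 in CD8 against CD4, and without the filter *Tnfsf10* was −0.021 in cycling epidermal γδ cells. ILC2 had a library with under 10 cells under stricter gates and gave no value there.

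With each library left out in turn, counts of called genes ran from 14 to 28 and 46 to 138 for cycling CD4 and IL-17 γδ cells, 67 to 171 for CD8 against CD4 and 101 to 195 for NK against CD8. For the groups they ran from 0 to 65 in CD4, 6 to 27 in CD8, 23 to 96 in epidermal γδ, 0 to 224 in IL-17 γδ, 0 to 40 in ILC2, 4 to 18 in NK and 15 to 61 in regulatory T cells. Group differences ran in NK cells from −0.85 to 0.047 for *Fasl*, −1.03 to 0.84 for *Gzmb*, −0.86 to 0.26 for *Nkg7* and −0.78 to 0.56 for *Prf1*. In CD8 cells they ran from −1.98 to 0.12 for *Fasl*, −8.64 to 0.82 for *Gzma*, −5.25 to 1.19 for *Gzmb* and −0.56 to 0.084 for *Nkg7*. In epidermal γδ cells they ran from −2.37 to 1.05 for *Gzmb*, −0.84 to 0.42 for *Gzmc*, −0.42 to 0.023 for *Prf1* and −0.30 to 0.33 for *Tnfsf10*, and for *Gzmb* in regulatory T cells from −0.53 to 0.57. Between gates, *Gzmc* ran from −1.16 to 1.54 in CD8 against CD4, *Fasl* from −0.50 to 0.15 in NK against CD8 and *Tnfsf10* from −0.66 to 1.28 in NK against epidermal γδ cells. For cycling they ran from −0.069 to 1.17 for *Gzmb* in CD4 cells, −0.49 to 0.77 for *Gzmb* and −0.22 to 0.39 for *Tnfsf10* in epidermal γδ cells, and −0.35 to 0.068 for *Gzmb*, −0.53 to 0.042 for *Nkg7* and −0.56 to 0.021 for *Prf1* in IL-17 γδ cells. The 18 to 48 cells of an NK gate limit the shares, and 2 mice per group limit every comparison of groups.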
